A study of Homo sapiens with 6 samples.

Results

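Transcript levels of 9 genes of the transforming growth factor beta (TGF-beta) pathway were followed in MDA-MB-231 cells. The genes were TGFB1, TGFB2, TGFBR1, TGFBR2, SMAD3, SMAD7, THBS1, TGFBI and VASN. Protein levels and pathway activity are not covered by these data. They were found by gene symbol among the 58735 genes of the deposited tables, and all 9 were among the 14736 genes with enough counts to be tested. The list was drawn up with the difference between treated and control cells in these same samples already known. Their responses to treatment are therefore given as a description, with no test. MDA-MB-231 is an established human triple-negative breast cancer (TNBC) line, labelled wild type and grown in medium with serum. Cells received either the vehicle or SCH, an aqueous extract of the herb *Salvia chinensis* Benth, at 100 mg/l for 24 h, and each group held 3 samples. SCH is a mixture of many compounds, and only 1 cell line, 1 dose and 1 time were sequenced. RNA sequencing gave 20291379, 18714240 and 18334857 counted fragments for vehicle replicates 1 to 3, and 16836369, 17979434 and 18414924 for SCH replicates 1 to 3.

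TGF-beta ligands are secreted in a latent form, held by their own propeptide and by latent TGF-beta binding proteins in the matrix. Once released, a ligand brings together the type II receptor TGFBR2 and the type I receptor TGFBR1, which phosphorylates SMAD2 and SMAD3. These join SMAD4, enter the nucleus and act on target genes, among them SMAD7, which feeds back to block the receptor. In epithelial tumors the pathway is known both for restraining proliferation and, in later disease, for promoting invasion and matrix production.

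The promoters of TGFB1, TGFB2, THBS1 and VASN are shown because these 4 genes had the largest differences among the 9. Each is the 250 bases before the RefSeq start on GRCh38.p14, read 5′ to 3′ on the strand of the gene. They lie at chr19:41353923-41354172 on the minus strand for TGFB1, and on the plus strand at chr1:218345086-218345335 for TGFB2, chr15:39580829-39581078 for THBS1 and chr16:4371598-4371847 for VASN. Capitals mark CAGAC on either strand, a short sequence that SMAD3 and SMAD4 are known to contact.
TGFB1: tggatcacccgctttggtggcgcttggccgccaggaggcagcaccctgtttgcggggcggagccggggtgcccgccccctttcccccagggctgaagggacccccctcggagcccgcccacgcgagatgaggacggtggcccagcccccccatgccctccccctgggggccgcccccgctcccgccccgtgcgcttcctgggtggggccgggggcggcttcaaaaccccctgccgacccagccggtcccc
TGFB2: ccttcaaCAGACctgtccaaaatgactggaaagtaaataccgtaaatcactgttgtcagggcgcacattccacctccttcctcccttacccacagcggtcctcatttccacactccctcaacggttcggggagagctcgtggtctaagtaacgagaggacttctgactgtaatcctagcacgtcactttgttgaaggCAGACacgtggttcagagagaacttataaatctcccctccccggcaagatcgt
THBS1: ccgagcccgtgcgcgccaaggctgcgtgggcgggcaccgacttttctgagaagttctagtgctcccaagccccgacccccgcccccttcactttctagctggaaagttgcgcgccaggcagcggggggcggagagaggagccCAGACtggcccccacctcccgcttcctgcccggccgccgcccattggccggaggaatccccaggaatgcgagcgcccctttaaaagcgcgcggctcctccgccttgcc
VASN: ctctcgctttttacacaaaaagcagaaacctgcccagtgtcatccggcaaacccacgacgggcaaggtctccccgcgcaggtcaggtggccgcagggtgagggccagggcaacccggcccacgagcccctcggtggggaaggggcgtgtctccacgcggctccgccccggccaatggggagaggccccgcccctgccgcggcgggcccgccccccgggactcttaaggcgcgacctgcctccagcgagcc
The TGFB2 promoter held 2 matches, at -243 to -239 and at -53 to -49 from the RefSeq start, and the THBS1 promoter held 1, at -108 to -104. The TGFB1 and VASN promoters held none. This split by direction did not extend to the other genes searched. CAGAC was in 4 of 8 RefSeq windows of TGFBR1 and 2 of 3 of SMAD7, both higher after SCH. Among the lower genes it was in 2 of 5 windows of SMAD3, 0 of 2 of TGFBR2 and not in the single window of TGFBI. CAGAC occurred in 38.0% of the 35116 RefSeq promoter windows of this length, so these matches are a description only. The palindrome GTCTAGAC, another known SMAD3 sequence that contains no CAGAC, occurred in 0.182% of all windows, and the AP-1 sequence TGANTCA in 6.57%. Neither was found on either strand in the 4 promoters shown, while TGANTCA was in 1 of 5 windows of SMAD3. GC content was 76.8% for TGFB1, 71.6% for VASN, 69.6% for THBS1 and 50.4% for TGFB2, against a median of 58% over all windows. The RefSeq start of TGFB2 lies 899 bases upstream of the start in the annotation used for counting.

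Levels are given as normalized CPM, the counts of a gene scaled to a library size corrected by TMM, so that samples can be compared. After SCH, TGFB1, TGFBR1, SMAD7 and VASN were higher, and TGFB2, TGFBR2, SMAD3, THBS1 and TGFBI were lower. VASN, which encodes the TGF-beta-binding membrane protein vasorin, differed most, at 5.86 times its vehicle level. The mean level of TGFB2 was 0.337 times and that of THBS1 0.478 times its vehicle level, while TGFB1 stood at 1.94 times. On this scale the 3 SCH samples lay entirely above or entirely below the 3 vehicle samples in all 9 genes. The same was true of 62.4% of all tested genes. By edgeR's quasi-likelihood test with Benjamini-Hochberg adjustment at 0.05, 58.7% of all tested genes changed, 29.3% up and 29.4% down. Since the list was chosen on this contrast, nothing is read from its own count. The median log2 fold change was -0.13 over the 9 genes and -0.0034 over all tested genes. These are bulk samples, in which fewer cells of a type and less RNA per cell cannot be told apart.

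**Figure D1:**
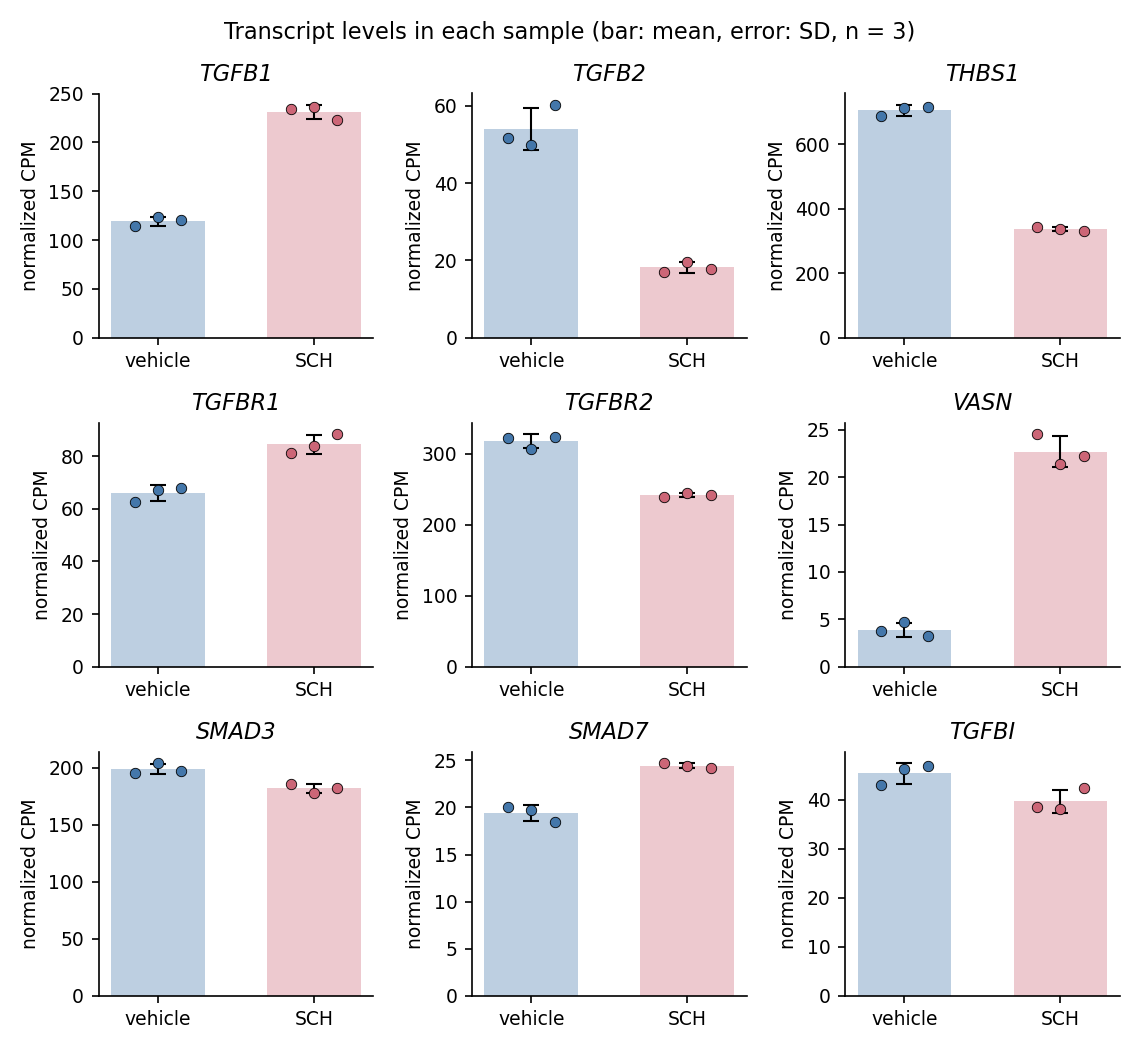
Level of each of the 9 genes by sample, in normalized CPM, for 3 vehicle and 3 SCH samples; points are samples, bars group means and error bars SD. The 3 SCH samples of VASN sit between 21.4 and 24.5 CPM, above vehicle samples of 3.21 to 4.68, and the groups do not overlap in any of the 9 genes.

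Among the ligands, the gene for TGF-beta 1 was higher after SCH and the gene for TGF-beta 2 was lower. TGFB1 (ENSG00000105329, chr19:41301587-41353911 on GRCh38, minus strand) had 114, 124 and 120 CPM in the vehicle samples and 234, 236 and 223 CPM in the SCH samples. Every SCH sample was far above every vehicle sample, and the samples within a group lay close together. The log2 fold change was 0.95 with a standard error (SE) of 0.051. TGFB2 (ENSG00000092969, chr1:218346235-218444619, plus strand) had 51.8, 50.0 and 60.2 CPM with vehicle and 17.1, 19.6 and 17.8 CPM with SCH. The third vehicle sample was the highest, and all SCH samples were well below the vehicle samples. Its log2 fold change was -1.57 (SE 0.081), the 270th largest fall among the 14736 tested genes. TGFB1 ranked 653rd among the rises.

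Per gene length, in the FPKM values (fragments per kilobase of exon, on a scale set for each sample) of the deposited tables, TGFB1 was the more abundant ligand in both groups. TGFB1 level was 35.6 ± 1.41 FPKM with vehicle and 69.3 ± 2.37 with SCH (mean ± SD of 3 samples, here and below). TGFB2 level was 10.1 ± 1.01 FPKM with vehicle and 3.43 ± 0.245 with SCH. TGFB1 thus made up 77.8, 79.7 and 76.1% of the summed FPKM of both ligands in the vehicle samples, and 95.6, 95 and 95.2% in the SCH samples. The ratio of TGFB1 to TGFB2 in FPKM moved from 3.54 ± 0.376 to 20.3 ± 1.35. The third ligand gene, TGFB3, was scarce, with 1.95 ± 0.229 CPM with vehicle and 4.66 ± 0.252 CPM with SCH, and it rose (log2 fold change 1.25, adjusted p = 4.42e-06, edgeR's quasi-likelihood test). It was chosen after its values were seen.

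**Figure D2:**
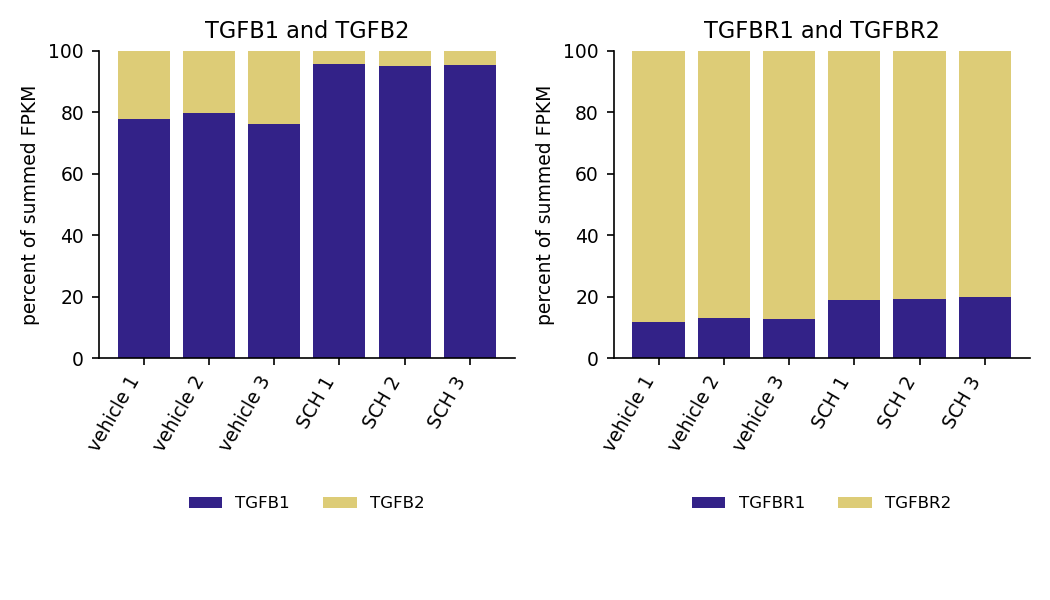
Left, percent of the summed FPKM of TGFB1 and TGFB2 taken by each gene; right, the same for TGFBR1 and TGFBR2, with a bar for each of the 6 samples. TGFB1 takes 76.1 to 79.7% in the vehicle samples and 95 to 95.6% in the SCH samples, and TGFBR1 takes 11.8 to 13.1% and 19.0 to 20.1%.

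Both ligand genes overlap other genes in the annotation. TGFB2 shares 1371 of its 5151 exonic bases, or 26.6%, with TGFB2-OT1 on the same strand, which was listed at 0 counts in all 6 samples. Scaled to the 3780 unshared bases, TGFB2 would have 13.8 FPKM with vehicle and 4.67 with SCH. This holds only if none of its counts came from the shared bases. TGFB1 shares 215 exonic bases, or 6.64%, with HNRNPUL1 on the opposite strand, an RNA-binding protein gene. HNRNPUL1 level was 521 ± 28.3 CPM with vehicle and 398 ± 10.1 CPM with SCH, a fall (log2 fold change -0.39, adjusted p = 3.29e-07, edgeR), opposite in direction to TGFB1. The strand setting of the counting is not given in the sources used here.

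The type I and type II receptor genes also differed in opposite directions. TGFBR1 (ENSG00000106799, chr9:99104038-99154192, plus strand), the signaling kinase of the pair, had 62.6, 67.2 and 68.1 CPM with vehicle and 81.4, 83.8 and 88.4 CPM with SCH. The groups were apart, with a log2 fold change of 0.36 (SE 0.058). TGFBR2 (ENSG00000163513, chr3:30606502-30694142, plus strand), the ligand-binding kinase, had 323, 306 and 324 CPM with vehicle and 238, 244 and 242 CPM with SCH. All SCH samples were lower, and they were closer to each other than the vehicle samples were. The log2 fold change was -0.40 (SE 0.047). Per gene length, TGFBR2 remained the more abundant receptor, with 65.3 ± 1.96 FPKM in vehicle and 49.8 ± 0.488 in SCH samples, where TGFBR1 had 9.32 ± 0.410 and 12 ± 0.467. The TGFBR1 share of the summed receptor FPKM was 12.5 ± 0.670% with vehicle and 19.4 ± 0.580% with SCH, and the groups did not overlap.

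The SMAD genes differed less. SMAD3 (ENSG00000166949, chr15:67063763-67195195, plus strand), a transcription factor activated by TGFBR1, had 195, 204 and 197 CPM with vehicle and 186, 178 and 182 CPM with SCH. The groups were apart by a narrow margin, at a log2 fold change of -0.13 (SE 0.048). SMAD7 (ENSG00000101665, chr18:48919853-48952052, minus strand), an inhibitory SMAD, had 20, 19.7 and 18.4 CPM with vehicle and 24.7, 24.4 and 24.2 CPM with SCH. It was higher in every SCH sample, at a log2 fold change of 0.33 (SE 0.079). The ratio of SMAD3 to SMAD7 in FPKM was 5.67 ± 0.264 with vehicle and 4.11 ± 0.0720 with SCH. SMAD3 shares 182 of its 9113 exonic bases with the antisense gene AC087482.1, which had 9 to 12 counts in each sample.

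The effector genes THBS1 and TGFBI were both lower, by very different amounts. THBS1 (ENSG00000137801, chr15:39581079-39599466, plus strand) encodes thrombospondin-1, a matrix protein that releases TGF-beta from its latent complex and is itself induced by TGF-beta. It had 686, 712 and 716 CPM with vehicle and 343, 337 and 330 CPM with SCH. Both groups were tight and far apart, with a log2 fold change of -1.07 (SE 0.046). TGFBI (ENSG00000120708, chr5:136028895-136063818, plus strand), the TGF-beta-induced matrix protein, had 43.1, 46.4 and 46.9 CPM with vehicle and 38.6, 38.1 and 42.4 CPM with SCH. The highest SCH sample was just below the lowest vehicle sample, and the log2 fold change was -0.19 (SE 0.068). SMAD3 and TGFBI were the closest of the 9 genes to no difference. When libraries were scaled by total count alone, their log2 fold changes became -0.024 and -0.090. That scaling moved the median of all tested genes to 0.099, and the vehicle and SCH samples of both genes overlapped. THBS1 shares 694 of its 9158 exonic bases, or 7.58%, with FSIP1, which had 2 to 18 counts in each sample, and with the antisense gene AC037198.2, which was listed at 0 counts in all 6.

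The genes most like THBS1 in their pattern over the 6 samples were PRKCA, VPS9D1-AS1 and SCARB1, chosen as the smallest root mean square difference of centered log2 CPM among 10713 genes. The differences were 0.0284, 0.0320 and 0.0324, and the log2 fold changes of the 3 genes lay between -1.09 and -1.05. PRKCA encodes protein kinase C alpha and SCARB1 a lipoprotein receptor. This likeness rests on 6 samples and on 1 contrast that all these genes share.

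VASN (ENSG00000168140, chr16:4371848-4383528, plus strand) was the least abundant of the 9 genes in vehicle cells. Vasorin binds TGF-beta, and its ectodomain, once shed by the protease ADAM17, is known to hold the ligand away from its receptors. VASN had 73, 84 and 57 counts in the vehicle samples and 428, 398 and 422 in the SCH samples. In CPM this was 3.74, 4.68 and 3.21 with vehicle and 24.5, 21.4 and 22.2 with SCH. The lowest SCH sample was well over the highest vehicle sample. The log2 fold change of 2.55 (SE 0.12) was the 18th largest rise of 14736. In FPKM, VASN moved from 1.33 ± 0.258 to 7.86 ± 0.593, and its ratio to TGFB1 from 0.0374 ± 0.00649 to 0.113 ± 0.00853. ADAM17 had 38.1 ± 1.23 CPM with vehicle and 42.6 ± 1.62 with SCH (log2 fold change 0.16, adjusted p = 0.0389, edgeR's quasi-likelihood test). That call was lost in DESeq2, in limma and without any of vehicle replicate 1, vehicle replicate 2, SCH replicate 1 or SCH replicate 3, where the log2 fold change was 0.13 to 0.18.

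VASN lies inside the span of CORO7, a coronin gene on the opposite strand, and of the CORO7-PAM16 readthrough. No exon of either gene overlaps the VASN span, so no exonic bases are shared. CORO7 had 108, 113 and 98 counts with vehicle and 76, 98 and 93 with SCH, and CORO7-PAM16 had 0 in all samples. Both genes share exons on the same strand, and how the counting treated reads from those exons is not given in the sources used here. In CPM, CORO7 was 5.78 ± 0.445 with vehicle and 4.84 ± 0.454 with SCH, and every SCH sample was below every vehicle sample. Its log2 fold change of -0.25 (SE 0.15) did not pass the test (adjusted p = 0.145, edgeR), and its direction was opposite to that of VASN.

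**Figure D3:**
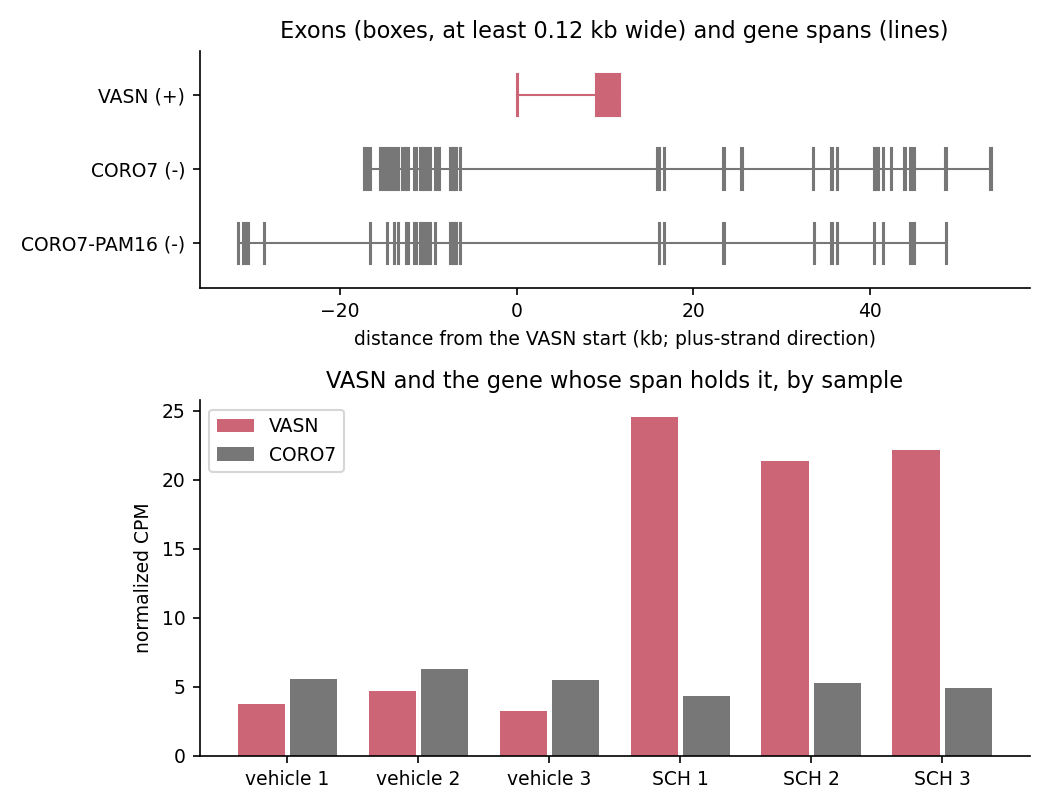
Merged exons (boxes) and span (lines) of VASN and of the 2 genes that contain it on the opposite strand, by distance in kilobases from the VASN start in GENCODE 29. VASN has 2 merged exons, at 0 to 0.145 and 9.02 to 11.7 kilobases, and no exon of CORO7 or CORO7-PAM16 falls between them or on them. The lower panel gives normalized CPM of VASN and CORO7 by sample, where CORO7 is at 5.51 to 6.29 with vehicle and 4.36 to 5.26 with SCH.

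The genes most like VASN over the 6 samples were CLU, RRAD and CDKN1A, at root mean square differences of 0.114, 0.153 and 0.166. CLU encodes the secreted chaperone clusterin, and had 18.2 to 22.1 CPM with vehicle and 104 to 114 CPM with SCH. CDKN1A encodes the cell-cycle inhibitor p21, a known target of both p53 and SMAD proteins. RRAD, a small GTPase gene, had a log2 fold change of 2.41, beside 2.42 for CLU and 2.34 for CDKN1A. Likeness to VASN also rests on 6 samples and on the contrast of SCH with vehicle that all these genes share. Whether they share a regulator was not tested.

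The order of the 9 genes per length changed with treatment. In vehicle cells THBS1 was highest at 74.4 ± 1.67 FPKM, followed by TGFBR2, TGFB1, SMAD3, TGFB2, TGFBR1, TGFBI, SMAD7 and VASN. In SCH-treated cells TGFB1 was highest, followed by TGFBR2, THBS1 at 35.7 ± 0.867 FPKM, SMAD3, TGFBR1, VASN, TGFBI, SMAD7 and TGFB2. The only neighbors whose sample ranges overlapped were TGFB2 and TGFBR1 with vehicle, and TGFBI and SMAD7 with SCH. VASN moved from last to the sixth place and TGFB2 from the fifth to the last. FPKM for SMAD3 were 21.1 ± 0.499 and 19.4 ± 0.467, for SMAD7 3.73 ± 0.165 and 4.72 ± 0.0629, and for TGFBI 5.62 ± 0.256 and 4.94 ± 0.279, with vehicle and SCH in turn.

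**Figure D4:**
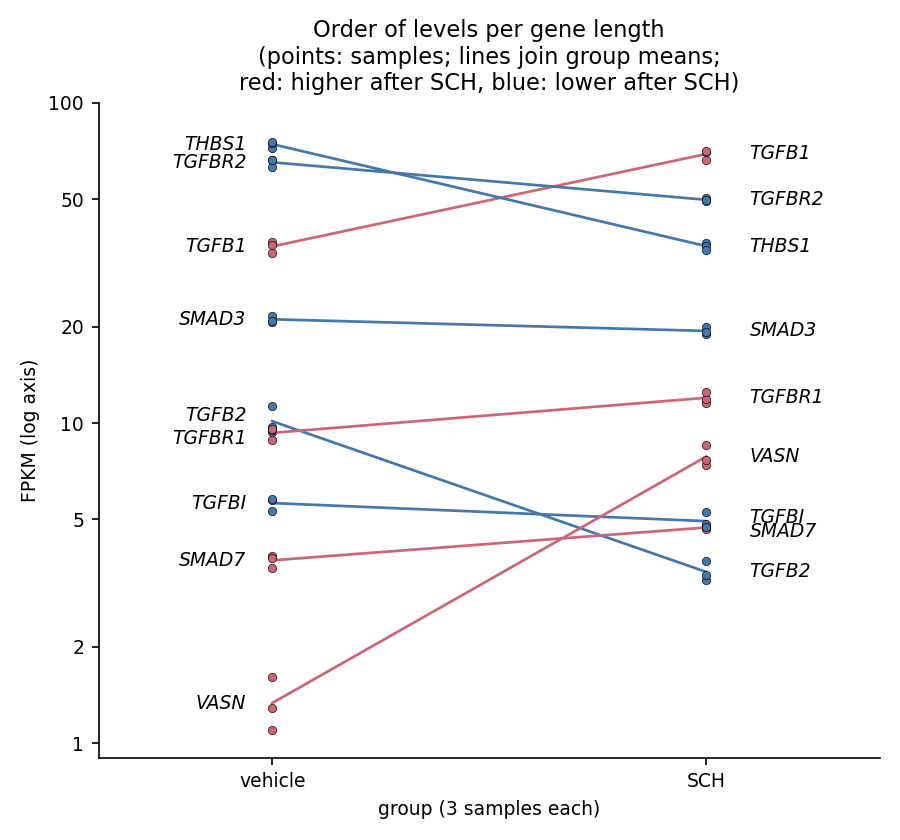
FPKM (log axis) of the 9 genes in vehicle and SCH samples; points are the 3 samples of a group, lines join the group means, red marks genes higher after SCH and blue those lower. The line of TGFB1 crosses those of TGFBR2 and THBS1, and VASN ends above TGFBI, SMAD7 and TGFB2.

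The surrounding pathway was examined in 102 further genes in 6 lists, of which 85 could be tested. Among them 36 rose, 29 fell and 20 did not pass the test, so 76.5% changed, beside 58.7% of all tested genes. The median mean count was 772 in the lists and 452 over all tested genes, and the part of counting depth in this share was not tested. The median log2 fold change of the lists was 0.08. A change of at least 1 on the log2 scale was seen in 15 of the 85, and over all tested genes in 8.77%. The lists were chosen with earlier results of these data known. Nothing is therefore read from their counts and shares, here or list by list. Adjusted p-values below are from edgeR's quasi-likelihood test, over all 14736 genes. Of the genes named from these lists or as markers of the line, VIM (24.4%), ITGB6 (20.6%), FKBP1A (16.8%), JUNB (14.2%), ADAM17 (13.6%) and PTHLH (10.5%) share over 10% of their exonic bases with other genes, and how the counting treated reads from those bases is not given in the sources used here.

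**Figure D5:**
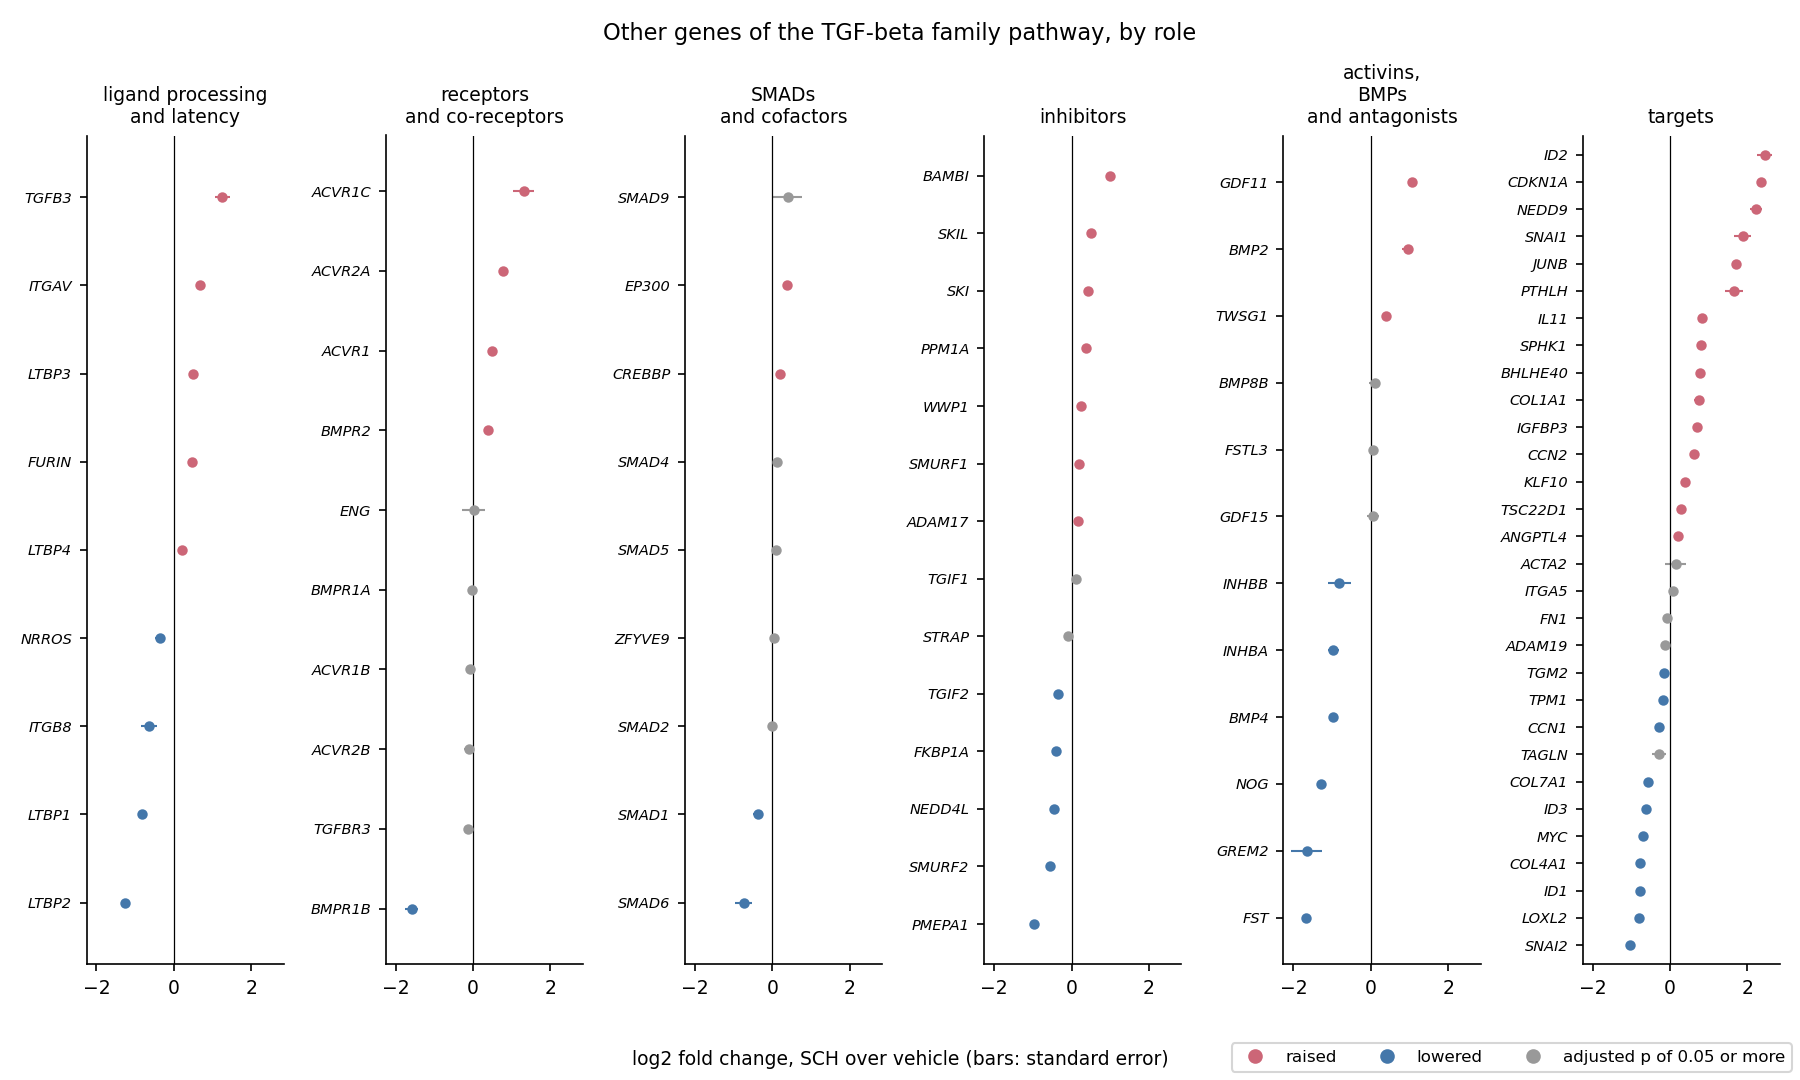
Log2 fold change, SCH against vehicle, of genes tested in the 6 pathway lists, with standard errors as bars, raised genes in red, lowered in blue and the others in gray. Changed genes lie on both sides of 0 in every list, from FST at -1.69 to ID2 at 2.45.

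Of the 9 tested genes for ligand processing and latency, 5 rose and 4 fell (100% changed, beside 58.7% of all tested genes). Genes of the latent TGF-beta binding protein family went both ways. LTBP2 fell from 21.9 ± 0.742 to 9.22 ± 1.41 CPM (log2 fold change -1.25, adjusted p = 3.91e-10) and LTBP1 from 86.8 ± 0.657 to 49.0 ± 2.58 CPM (-0.82, adjusted p = 2.91e-11). LTBP3 rose from 29.4 ± 0.706 to 41.6 ± 2.62 CPM (0.50, adjusted p = 1.75e-06). LTBP4, the most abundant of the family in CPM, rose from 166 ± 9.43 to 191 ± 14.2 CPM (0.20, adjusted p = 0.00382). ITGAV, the integrin alpha V subunit that pulls latent ligand open, rose by 0.68 (adjusted p = 4.42e-10). FURIN, the protease that cleaves the ligand precursor, rose by 0.47 (adjusted p = 5.27e-07). ITGB6 and LRRC32 had too few counts to be tested. ITGB8, a further integrin gene of this list, fell from 4.24 ± 1.27 to 2.71 ± 0.0925 CPM (-0.64, adjusted p = 0.0113). It was chosen after its values were seen and was not followed under the alternatives.

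Of 10 tested receptors and co-receptors, 4 rose, 1 fell and 5 did not pass (50% changed, beside 58.7% of all tested genes). The type II activin receptor ACVR2A rose from 8.09 ± 0.662 to 13.8 ± 0.718 CPM (log2 fold change 0.77, adjusted p = 2.02e-06). The type I receptor ACVR1 rose by 0.49 (adjusted p = 1.27e-05) and the bone morphogenetic protein (BMP) receptor BMPR2 by 0.39 (adjusted p = 3.20e-05). Activin receptor ACVR1B had a log2 fold change of -0.09 (95% interval -0.27 to 0.08). The co-receptor TGFBR3, chosen after its values were seen, had -0.14 (adjusted p = 0.160).

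Of 9 tested SMADs and cofactors, 2 rose, 2 fell and 5 did not pass (44.4% changed, beside 58.7% of all tested genes). The partners of SMAD3 were among those that did not pass. SMAD2 had 67.9 ± 4.04 CPM with vehicle and 68.1 ± 3.75 with SCH, and its log2 fold change of 0.0039 had a 95% interval of -0.12 to 0.13. SMAD4 had a log2 fold change of 0.11 (95% interval -0.02 to 0.24). SMAD6, the other inhibitory SMAD and directed mainly at BMP signals, fell from 3.47 ± 0.645 to 2.07 ± 0.404 CPM (log2 fold change -0.74, adjusted p = 0.00541), opposite in direction to SMAD7. SMAD2, SMAD4 and SMAD6 were chosen after their values were seen. The coactivator EP300 rose by 0.37 (adjusted p = 2.36e-05). SMAD5, a BMP-responsive SMAD and the most abundant of the list per length, had 0.08 (95% interval -0.03 to 0.20), and passed the test without vehicle replicate 3 at 0.14 (adjusted p = 0.0163). SMAD1 fell by 0.37 (adjusted p = 0.0190), but did not pass without vehicle replicate 2 (-0.24, adjusted p = 0.143) or SCH replicate 1 (-0.28, adjusted p = 0.101). It also missed the threshold in DESeq2 (adjusted p = 0.0847), in limma on log2(FPKM + 1) and log2(FPKM + 0.1) (adjusted p = 0.0645 and 0.0719) and with total-count scaling (adjusted p = 0.0844). CREBBP, a coactivator, rose by 0.20 (adjusted p = 0.0123), but did not pass without vehicle replicate 1 (0.14, adjusted p = 0.104) or SCH replicate 1 (0.13, adjusted p = 0.0940), nor in the limma fits (adjusted p = 0.0802 and 0.0753).

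Of 14 tested inhibitors of the pathway, 7 rose, 5 fell and 2 did not pass (85.7% changed, beside 58.7% of all tested genes). BAMBI, a decoy receptor, rose from 13.0 ± 0.965 to 25.8 ± 1.99 CPM (log2 fold change 0.98, adjusted p = 2.46e-09), and the SMAD repressor gene SKIL rose by 0.50 (adjusted p = 6.56e-05). PMEPA1, which keeps SMAD2 and SMAD3 from the receptor and is itself a TGF-beta target, fell from 57.8 ± 2.09 to 29.7 ± 1.45 CPM (-0.96, adjusted p = 1.75e-11). The ubiquitin ligase gene SMURF2 fell by 0.56 (adjusted p = 2.64e-09) and FKBP1A, whose product binds the type I receptor, by 0.41 (adjusted p = 4.24e-08). STRAP, a SMAD7 partner, had -0.10 (95% interval -0.21 to 0.01).

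Activins, BMPs and their antagonists had 3 rises, 6 falls and 3 genes that did not pass among 12 tested. That is 75% changed, beside 58.7% of all tested genes, with a median log2 fold change of -0.38. With mean counts of 100 or more, the 2 largest falls were in secreted antagonists. FST, which encodes the activin trap follistatin, went from 64.0 ± 2.40 to 19.9 ± 1.14 CPM (-1.69, adjusted p = 2.55e-15), and NOG, the BMP antagonist noggin, from 43.3 ± 2.34 to 17.9 ± 0.462 CPM (-1.28, adjusted p = 1.04e-12). The ligand gene BMP4 fell from 186 ± 4.75 to 94.2 ± 5.29 CPM (-0.98, adjusted p = 3.10e-13). GDF11, an activin-like ligand gene, rose from 45.8 ± 0.383 to 95.4 ± 2.13 CPM (1.06, adjusted p = 2.28e-13). FSTL3, a relative of follistatin, had 0.07 (95% interval -0.06 to 0.19).

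Of 31 tested target genes, 15 rose, 11 fell and 5 did not pass (83.9% changed, beside 58.7% of all tested genes). Their median log2 fold change was 0.14. No expected direction was set for each gene, so the counts and the median do not measure pathway activity. Several of these genes also answer to other pathways. Among genes with mean counts of 100 or more, the largest rises were in CDKN1A, from 103 ± 7.90 to 525 ± 10.6 CPM (2.34, adjusted p = 1.52e-19), and in the AP-1 subunit gene JUNB, from 48.8 ± 3.91 to 159 ± 9.23 CPM (1.70, adjusted p = 3.66e-16). The cytokine gene IL11 rose by 0.83 (adjusted p = 1.21e-12). The transcription factor gene SNAI2 fell from 36.1 ± 2.62 to 17.6 ± 1.17 CPM (-1.03, adjusted p = 1.70e-10). The matricellular gene CCN1 (CYR61 in the files) fell by 0.27 (adjusted p = 3.23e-05). Its relative CCN2 moved the other way, from 296 ± 8.56 to 457 ± 19.4 CPM (0.63, adjusted p = 1.11e-10). SNAI1 rose by 1.88 (adjusted p = 1.18e-07) at a low level of 1.12 ± 0.198 CPM with vehicle. Among the BMP-responsive ID genes, ID1 fell by 0.77 (adjusted p = 1.79e-09) and ID3 by 0.61 (adjusted p = 1.11e-07), and ID2 rose by 2.45 (adjusted p = 1.47e-10) from 1.37 ± 0.382 CPM. CCN2, SNAI1 and the ID genes were chosen after their values were seen.

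The labelled cell line was checked against its markers. VIM, the mesenchymal filament vimentin, had 263 FPKM with vehicle and 180 with SCH, and CD44 had 96.6 and 99.3. Of the luminal markers, ESR1 and CDH1 were at 0.0152 and 0.0401 FPKM in vehicle cells and PGR was listed at 0 in all 3 vehicle samples, while ERBB2, EPCAM and GATA3 were present at 6.67, 6.53 and 3.84 FPKM. With SCH, ESR1 and CDH1 were at 0.00878 and 0.0200 FPKM, and PGR had 1 count in 1 sample. ERBB2 rose to 8.22 FPKM (log2 fold change 0.29, adjusted p = 0.000164, edgeR), while EPCAM fell to 4.59 (-0.52, adjusted p = 9.22e-05) and GATA3 to 2.24 (-0.79, adjusted p = 4.36e-06). VIM, the receptor kinase gene AXL and MSN, which encodes moesin, fell (log2 fold changes -0.56, -0.84 and -0.19, adjusted p = 2.02e-10, 2.52e-13 and 0.000982, edgeR), while CD44 had 0.03 (adjusted p = 0.547). Of 6 fibroblast markers, 1 had enough counts to be tested, DCN was at 0 in all samples, and their summed FPKM was 0.207 with vehicle and 0.179 with SCH, most of it PDGFRB. The summed FPKM of 4 leukocyte markers was 0.686 and 0.623, most of it CD14, and CD3E was at 0 in all 3 vehicle samples. The leukocyte gene PTPRC fell from 0.210 to 0.0307 FPKM, on 34 to 39 counts with vehicle and 3 to 9 with SCH (adjusted p = 8.80e-07, edgeR). CD14 had 0.417 FPKM with vehicle and 0.506 with SCH (log2 fold change 0.27, adjusted p = 0.544, edgeR), and CD79A, with 0.0589 and 0.0804, and CD3E, with 0 and 0.00596, had too few counts to be tested. The 3 endothelial markers summed to 0.165 and 0.162 FPKM, most of it PECAM1, and CDH5 was at 0 in all vehicle samples. The part of other cells in the differences above was not tested, beyond these levels.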

How the data were processed

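RNA of 3 vehicle and 3 SCH samples was sequenced from poly-T purified mRNA, and the series describes the repeats as biological. The deposited tables hold unnormalized fragment counts for each gene. The authors also deposited FPKM of each sample, which divide these counts by gene length and by a scale for each sample. For the 9 genes that scale was 0.992 to 1.00 times the total count in vehicle and 1.06 to 1.07 times in SCH samples, so FPKM were not scaled to total count alone, and the authors' scaling step is not given in the sources used here. It was 1.02 to 1.03 times the TMM-scaled total in all 6 samples. The submitters' processing notes name CASAVA 1.8, HISAT2 2.0.5, featureCounts 1.5.0-p3, DESeq2 1.20.0 and GRCh38. Strand setting and filters are not given in the sources used here. Gene positions in the deposited table equal those of GENCODE 29 for all 58735 genes.

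Counts were analyzed in R 4.3.3 with edgeR 4.0.16 (TMM scaling, filterByExpr, quasi-likelihood test of SCH against vehicle without covariates, Benjamini-Hochberg adjustment over 14736 genes, threshold 0.05). The procedure was tested on simulated data. CPM were computed on TMM-scaled libraries, and SE is the log2 fold change over the square root of F. Alternatives were RLE factors, total count only, no filter, a minimum of 10 counts in all samples, DESeq2 1.42.0 (adjusted p of NA left as NA), limma 3.58.1 on log2(FPKM + 1) and log2(FPKM + 0.1), a block for replicate number, and each sample left out in turn. A shorter TGFB2 length was added after the data were seen.

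The 9 genes and the 6 lists were chosen with earlier results of these data known, and the lists were written from general knowledge. From each list, the text names up to 4 genes past the threshold with the largest changes, if their groups were apart and their mean count was 100 or more, plus the 2 with the highest mean FPKM. Genes that share exonic bases with one of the 9, or whose span contains one, and the 3 genes most like VASN and THBS1 (mean count at least 100), are also named. Any other gene was chosen after its values were seen. The values of 1 gene that the rule covers, which is part of the counts, are not reported or plotted here. The replicate numbers were not treated as pairs. Promoter sequences are from RefSeq, searched on both strands; 5 of the 9 genes had a single window and the others several.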

Additional observations from a re-analysis of the deposited data

How the results depend on the processing

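All 9 genes kept their direction under every alternative. VASN ranged from 1.93, on log2(FPKM + 1), to 2.70, without vehicle replicate 2, and TGFB2 from -1.62 to -1.33. The number of changed genes lay between 7555 (DESeq2, 7430 of them shared with edgeR) and 8814, and from 7809 to 8489 with single samples left out. Scaling by total count alone shifted the median of all genes by 0.10, to 0.099, and the split to 5519 raised and 3295 lowered. Under that scaling the median of the 85 tested pathway genes was 0.19, ACVR1B turned to 0.011 and STRAP to 0.0031, SMAD4 (0.21), SMAD5 (0.19) and FSTL3 (0.17) passed the test and SMAD1 did not. That scaling moves all genes by nearly the same amount. Relative to the median of all genes, SMAD3 was therefore at -0.12 and TGFBI at -0.19 by construction. The same scaling made LTBP4 (0.31), CREBBP (0.30) and ADAM17 (0.26) larger and CCN1 (-0.17) smaller. On log2(FPKM + 1), which understates changes of low genes by its construction, values shrank over 1.5 times for LTBP2 (-0.75), ACVR2A (0.47), SMAD6 (-0.17), TGFB3 (0.47), INHBA (-0.36), SNAI1 (1.05), ID2 (1.42), NEDD9 (0.63), PTHLH (0.56) and BMPR1B (-0.62), all still past the test. DESeq2 also lost SMAD1 (-0.36). In limma, SMAD1 was lost at -0.21 on log2(FPKM + 1), a value over 1.5 times smaller, and at -0.33 on log2(FPKM + 0.1). CREBBP was lost in the same 2 fits at 0.17 and 0.20. SMAD2, near 0, turned to -0.0012 with at least 10 counts in every sample and ranged from -0.032 to 0.054 with single samples left out. In those fits FSTL3 ranged from 0.0032 to 0.13, SMAD4 from 0.047 to 0.15 and SMAD5 from 0.054 to 0.14. ACVR1B ranged from -0.17 to -0.036 and STRAP from -0.13 to -0.064. Of 31 pathway genes covered by the rule for naming, 25 kept their direction and call throughout. The median of the pathway genes was 0.054 without vehicle replicate 1 and 0.049 on log2(FPKM + 1). TGFB2 was also scaled to the bases not shared with TGFB2-OT1, keeping all its counts, an alternative chosen after seeing the data. The TGFB1 share of both ligands was then 72.1% with vehicle and 93.7% with SCH. TGFB1 itself was not rescaled.

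Replicates with the same number correlated in their deviations at 0.046, -0.022 and 0.022, so the numbers were not taken to pair the samples. With the replicate number as a block, 8705 genes changed and 65 of the pathway genes, and VASN had a log2 fold change of 2.55. At this depth, VASN in vehicle cells rests on 57 to 84 counts, and genes left out of the test for low counts have no result.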

Other observations

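Some genes of the pathway lists outside the rule for naming, chosen after their values were seen, had large changes on few counts. NEDD9, a scaffold gene of cell adhesion, rose from 1.88 ± 0.192 to 8.80 ± 0.681 CPM (log2 fold change 2.22, adjusted p = 5.21e-11, edgeR's quasi-likelihood test), and PTHLH, the parathyroid hormone-like peptide, from 0.964 ± 0.129 to 3.04 ± 0.156 CPM (1.66, adjusted p = 3.02e-06). The BMP receptor gene BMPR1B fell from 7.17 ± 1.07 to 2.38 ± 0.370 CPM (-1.59, adjusted p = 4.36e-08). The activin subunit gene INHBA fell from 7.25 ± 0.353 to 3.71 ± 0.278 CPM (-0.97, adjusted p = 4.85e-06).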
